A study of Mus musculus with 21 samples.

Results

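Cyp7a1 encodes cholesterol 7-alpha-hydroxylase, the enzyme that starts the classical route from cholesterol to bile acids. It is 1 of 16535 named genes of a mouse microarray and was measured by 2 of its 41174 probes, A_52_P84027 and A_51_P290981, the probes whose transcript accession, NM_007824, maps to this gene on chromosome 4. The samples were livers of 21 female C57BL/6 mice, bought at 5 to 7 weeks of age and kept for 1 to 3 weeks before dosing. TiO2 mice received 162 µg of nano-TiO2, titanium dioxide of nanometre size, once into the trachea in 40 µl of saline with 10% cell-free lung lavage fluid of other mice, and control mice received that vehicle alone. Instillation and killing were under Hypnorm and Dormicum anaesthesia, and livers were taken at day 1 (5 control and 6 TiO2 mice) or day 28 (4 control and 6 TiO2 mice). Each array carried the RNA of 1 mouse in the red dye and a reference RNA from 11 mouse cell lines in the green dye, so every level below is a log2 ratio of liver over reference. The gene was chosen by these measured values, its difference between TiO2 and control mice. Its own levels and differences are therefore described without a test. Intervals given for its differences take no account of this choice, so no interval is read as a test.

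Bile acids are made from cholesterol in hepatocytes, and the step of Cyp7a1 sets the pace of the classical pathway. Bile acids limit their own synthesis: in the liver they activate the receptor FXR (Nr1h4), which induces SHP (Nr0b2), a repressor of the Cyp7a1 gene, and from the gut a fibroblast growth factor signals through Fgfr4 and its partner Klb. Transcription of Cyp7a1 needs LRH-1 (Nr5a2) and HNF4-alpha (Hnf4a), follows the circadian clock and feeding, and is known to fall in inflammation.

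The extraction protocol of the labels names lung although every sample is given as liver, so markers were checked on each array. Of 14 hepatocyte markers, 13 were well above background on all 21 arrays, at medians of 6.01 to 7.21 per array. Of 12 lung markers, Sftpd alone was above background on all 21 arrays. Lamp3 was above it on 20, Scgb1a1 on 17, Slc34a2 on 16, Napsa on 13, Aqp5 on 9, Scgb3a1 on 7 and Sftpa1 on 4. Sftpc and Sftpb were above it on 2 of 21 and Ager and Foxj1 on 0. The median of the list lay between -0.14 and 0.21 per array. The arrays were scanned on 3 days, which held 6, 8 and 7 arrays and all 4 groups each. The scanner software found 22235 to 28287 probes above background in the liver channel on scan day 2 but 13902 to 18016 on the others. On scan day 1 several liver genes stood low whatever the group, among them Abcb11, Nr1h4 and Nr5a2. Values with scan day as a block are given below for Cyp7a1 and Abcb11. All 12 quality metrics of the scanner software were in range on 11 of the 21 arrays.

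At probe A_52_P84027, which had the higher mean liver signal of the pair, the 5 control mice at day 1 stood at 4.88, 2.57, 5.46, 5.29 and 4.33. The 6 TiO2 mice at day 1 ranged from 1.67 to 3.78 with a median of 3.18. Replicate 2 was the one control mouse inside the range of the TiO2 mice, and the other 4 lay above the highest of them. All 6 TiO2 mice lay below the control mean, and 2 below the lowest control. The group means were 4.51 ± 1.17 (SD, n = 5) and 2.91 ± 0.75 (SD, n = 6). The difference of -1.59 ± 0.51 (SE of limma, 95% interval -2.66 to -0.53) corresponds to a level 3.02-fold lower with TiO2. The interval takes no account of the choice of the gene by this difference and is no test of it. Without control day 1 replicate 2 the difference was -2.08.

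At day 28 the 4 control mice stood at 6.24, 4.34, 4.26 and 5.41. The 6 TiO2 mice ranged from 2.76 to 5.17 with a median of 3.69. TiO2 replicates 1 and 6 overlapped the controls, and the other 4 lay below the lowest control. The means were 5.06 ± 0.94 (SD, n = 4) and 3.91 ± 0.88 (SD, n = 6), a difference of -1.16 ± 0.54 with an interval of -2.29 to -0.02, or 2.23-fold lower. It rested in part on control day 28 replicate 1, the highest of all 21 mice, and was -0.77 without it. On the 11 arrays with all quality metrics in range, 2 of the day 28 controls and 3 of the TiO2 mice, it was -0.36. Over both days the difference was -1.38 ± 0.37 (interval -2.15 to -0.60), 2.60-fold lower.

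**Figure D1:**
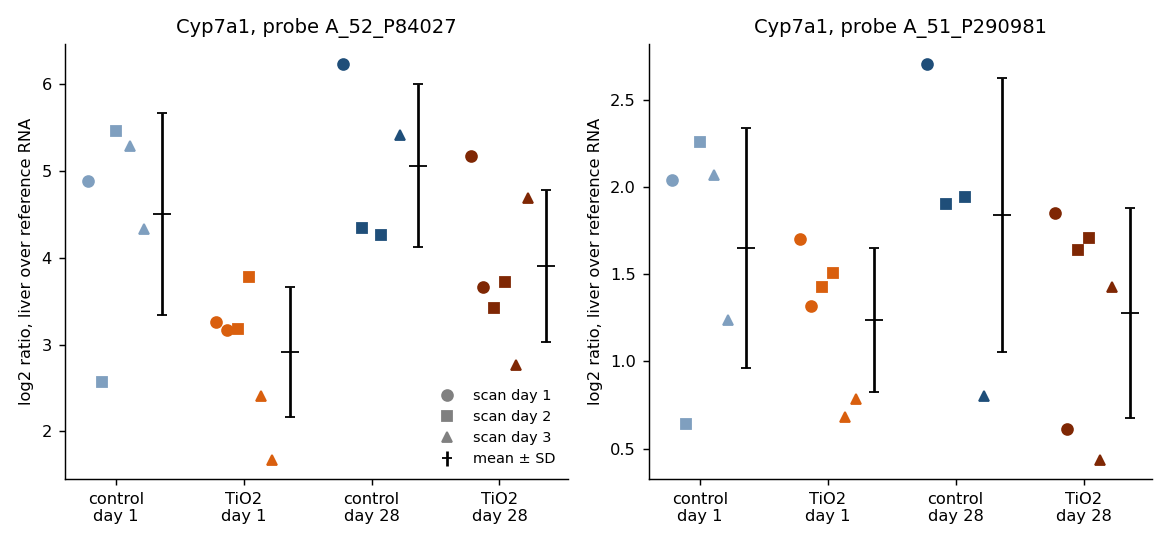
Log2 ratio of liver over reference RNA for the 2 probes of Cyp7a1 (left A_52_P84027, right A_51_P290981) in each mouse of the 4 groups. Symbols give the scan day, and the black bar the group mean ± SD. At the left probe all 6 TiO2 mice at day 1 lie below the control mean, and control replicate 2 lies among them.

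From lowest to highest, the group means ran from TiO2 at day 1 (2.91) over TiO2 at day 28 (3.91) and control at day 1 (4.51) to control at day 28 (5.06). The middle pair and the upper pair of neighbours differed by less than the SD of either group. TiO2 mice at day 28 stood 1.00 ± 0.49 above TiO2 mice at day 1, with an interval of -0.02 to 2.01. For controls this difference was 0.56 ± 0.57. The change of the TiO2 difference between the days was thus 0.44 ± 0.75, with an interval of -1.12 to 1.99. Around the median of all mice, 3.78, all 4 controls of day 28 and 4 of the 5 of day 1 lay above. Of the TiO2 mice, 5 of 6 at day 1 lay below it and 1 was the median itself, and at day 28 4 lay below and 2 above.

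Among all 17649 features tested (a named gene, or a probe without a name), Cyp7a1 had the most negative difference at day 1, at day 28 and over both days, with 0 features lower. Since that contrast chose the gene, this is its position only. Over all features 2.61% had every TiO2 mouse below the control mean at day 1, as Cyp7a1 had. The gene also varied widely between mice of one group. Its pooled SD within groups was 0.93, against a median of 0.23 over 17441 features with complete values, and 0.55% of features had a larger one. From the lowest mouse, TiO2 day 1 replicate 6 at 1.67, to the highest, control day 28 replicate 1 at 6.24, the ratio spanned 23.6-fold. In bulk liver RNA, fewer cells with the transcript and less of it per cell cannot be told apart.

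The differences were negative within each scan day, where a group holds 1 or 2 mice. At day 1 they were -1.67 on scan day 1, -0.53 on scan day 2 and -2.77 on scan day 3. At day 28 they were -1.82, -0.73 and -1.68. Scan day 2, with the most probes above background, gave the difference nearest 0 at either time, and without scan day 3 the day 1 difference was -0.96. A fit that included scan day gave differences of -1.69 ± 0.47 at day 1, -1.23 ± 0.50 at day 28 and -1.46 ± 0.34 over both days. Scan day took 5.16% of the variance of A_52_P84027 and group 46.8%, while at the other probe scan day took 22.2% and group 16.3%.

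The second probe, A_51_P290981, gave smaller differences of the same sign. The control mice at day 1 stood at 2.04, 0.64, 2.26, 2.07 and 1.24, and the TiO2 mice ranged from 0.68 to 1.70 with a median of 1.37. No TiO2 mouse lay below the lowest control, again replicate 2, and 5 of 6 lay below the control mean. The difference was -0.41 ± 0.34 (interval -1.12 to 0.29). At day 28 the controls stood at 2.71, 1.90, 1.94 and 0.80 and the TiO2 mice ranged from 0.44 to 1.85 with a median of 1.53, a difference of -0.56 ± 0.36 (interval -1.31 to 0.19). Over both days it was -0.49 ± 0.25, with an interval of -1.0 to 0.03. Within scan days this probe gave -0.53, 0.02 and -0.92 at day 1, and -1.48, -0.25 and 0.13 at day 28.

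Across the 21 mice the probes had a Pearson r of 0.71 and a Spearman rho of 0.71, and r was 0.60 without the 2 mice farthest from the median of A_52_P84027. Within scan days r was 0.78, 0.92 and 0.65. After removal of group and scan day means it was 0.73, so mice high for their group at one probe were mostly high at the other.

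**Figure D2:**
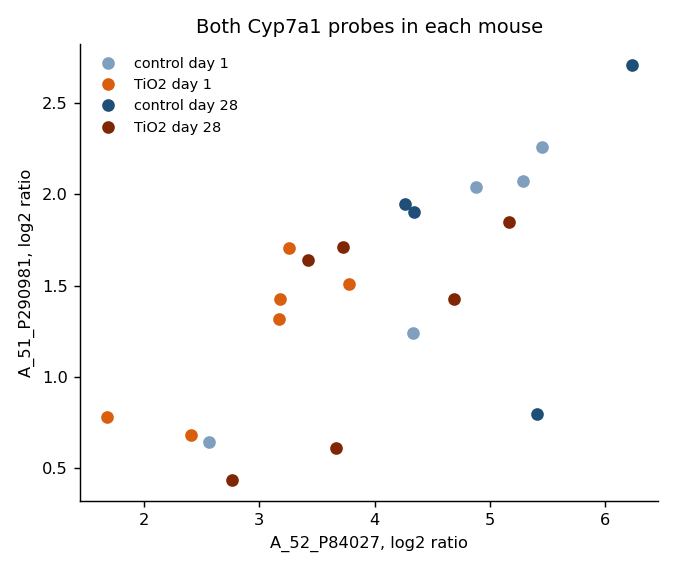
Log2 ratios of both Cyp7a1 probes, one point per mouse, coloured by group. The points rise together (r = 0.71, 21 mice), and A_51_P290981 spans 0.44 to 2.71 where A_52_P84027 spans 1.67 to 6.24.

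The signals behind these ratios differ in strength. In the liver channel A_52_P84027 was well above background on 21 of 21 arrays and A_51_P290981 on 20 of 21, and 0 spots were saturated or marked as deviant. Liver signal above local background at A_52_P84027 was 433 to 3040 in the day 1 controls and 70.5 to 804 in the TiO2 mice of that day. At A_51_P290981 it was 55.0 to 243 and 25.0 to 215, close to the offset of 50 added before the log. In the reference channel the 2 probes were above background on only 9 and 7 arrays, so the denominator of the ratio is near background. With the liver channel alone, normalized between arrays, A_52_P84027 differed by -1.22 at day 1 and -1.03 at day 28. In the authors' deposited table of processed values the differences were -1.74 and -1.34.

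**Figure D3:**
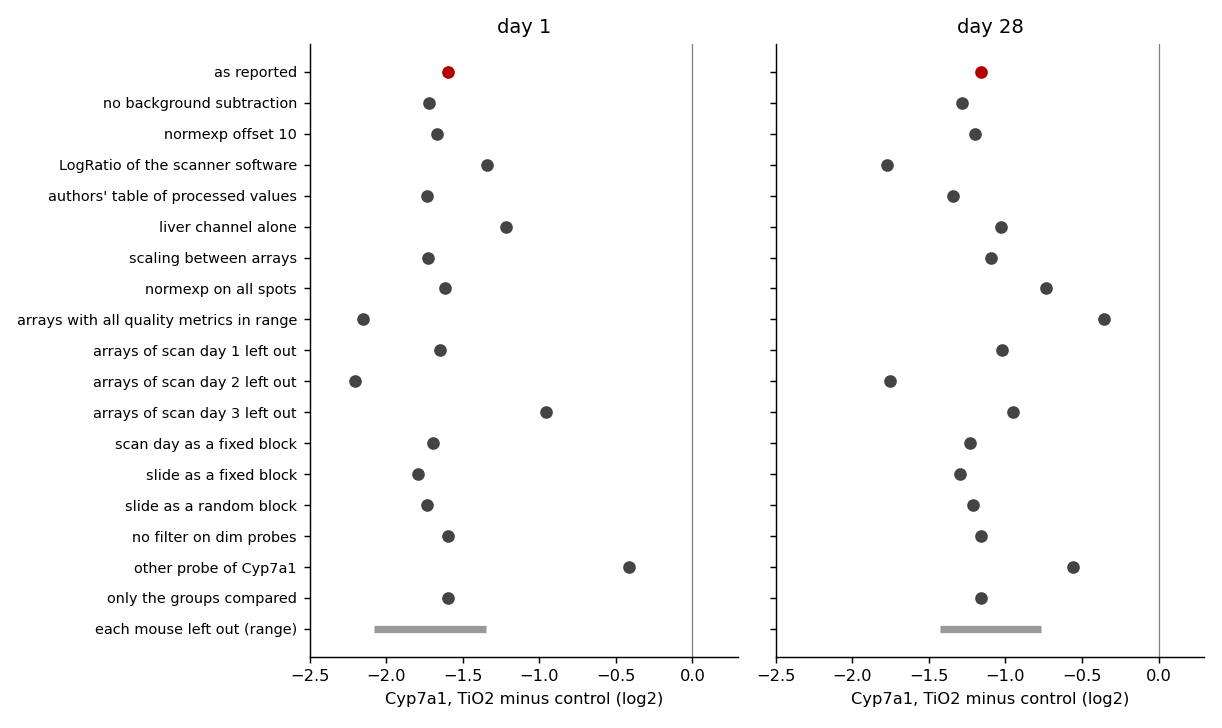
Difference of Cyp7a1 between TiO2 and control mice (log2) under each way of processing, at day 1 (left) and day 28 (right). The red point is the value as reported, and the grey bar spans the values with each mouse left out. All lie below 0, from -2.21 to -0.41 at day 1 and from -1.77 to -0.36 at day 28.

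None of the other enzymes of bile acid synthesis passed the test between TiO2 and control mice. Of 20 measured besides Cyp7a1, 10 had higher and 10 lower values at day 1, with a median difference of -0.01 (-0.01 over all features), and 6 and 14 at day 28, with a median of -0.01 (0.00 over all features). In limma 0 had a Benjamini-Hochberg adjusted p under 0.05, and 0 reached an unadjusted p of 0.05. Over all features 0% were called in either comparison, with 1.73% at an unadjusted p under 0.05 at day 1 and 0.935% at day 28. Cyp27a1, which starts the alternative pathway, differed by 0.38 ± 0.27 at day 1 and 0.25 ± 0.28 at day 28. Cyp8b1, the sterol 12-alpha-hydroxylase that sets the share of cholic acid, differed by 0.27 ± 0.33 and 0.32 ± 0.35, and Cyp7b1, the oxysterol hydroxylase, by 0.18 ± 0.19 and -0.02 ± 0.21. The point values of Cyp8b1 and Cyp27a1 thus lay on the other side of 0 from Cyp7a1, each within 2 SE of 0. Of enzymes of later steps, Hsd3b7 differed by -0.15 ± 0.13 and Acox2 by -0.12 ± 0.12 at day 1, and Acot8 by -0.25 ± 0.15 and Akr1c14 by -0.19 ± 0.14 at day 28.

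Transporters of bile acids and biliary lipids gave 0 calls among 16 measured. At day 1 5 were higher and 11 lower with a median of -0.09, and at day 28 5 and 11 with a median of -0.06. Over all features 47.8% were higher at day 1 and 51.2% at day 28, with medians of -0.01 and 0.00, and 0% were called. Abcb11, the bile salt export pump, stood at 4.28 to 5.68 on scan day 1 and at 7.05 to 7.82 on the other scan days, in every group. Its difference at day 1 was -0.50 ± 0.72, and -0.16 in the fit with scan day. Slc10a1, the sodium-dependent uptake carrier, differed by -0.16 ± 0.21 at day 1 and 0.24 ± 0.23 at day 28. Abcc2, the canalicular organic anion pump, differed by -0.20 ± 0.18 and -0.33 ± 0.19.

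Of 26 regulators of Cyp7a1 and bile acid signalling genes, 0 were called in any comparison. Their median difference was -0.06 at day 1, with 8 higher and 18 lower, and -0.03 at day 28, with 11 higher and 15 lower. Of all features 47.8% were higher at day 1 and 51.2% at day 28. Nr0b2 stood at 3.38, 2.37, 2.18, 1.69 and 2.85 in the day 1 controls and at 1.51, 2.78, 2.68 and 2.05 in those of day 28. In TiO2 mice it ranged from 2.57 to 3.37 at day 1 and from 1.99 to 3.32 at day 28. The groups overlapped at both times, with differences of 0.44 ± 0.30 and 0.45 ± 0.32, and the limma adjusted p was 1.00 for each. The mouse with the highest Cyp7a1, control day 28 replicate 1, had the lowest Nr0b2. Its array had 4 of 12 quality metrics out of range, the most of all arrays, and 502 marked spots. The receptor Nr1h4 differed by -0.28 ± 0.44 and -0.18 ± 0.47, Nr5a2 by -0.21 ± 0.65 and -0.19 ± 0.69, and Hnf4a by -0.09 ± 0.21 and 0.00 ± 0.23. Nr1h4 and Nr5a2 stood low on scan day 1, which held 1 control and 2 TiO2 mice at either time. Their differences here are from the fit without scan day. Under 37 alternatives the Nr5a2 difference ranged from -0.64 to 0.17 at day 1 and from -0.96 to 0.48 at day 28, so its sign was not settled. The growth factor receptor Fgfr4 differed by -0.09 ± 0.16 and -0.19 ± 0.17, and Klb by 0.00 ± 0.28 and -0.03 ± 0.30. The member with the smallest p at day 1 was Nr4a1, an orphan nuclear receptor of the immediate early kind, at 1.14 ± 0.37 (unadjusted p 0.00614, adjusted 1.00). At day 28 it differed by 0.14 ± 0.40.

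None of the clock genes passed the test between treatments. The labels give a 12 h light cycle and food at will, and the hour at which livers were taken was not used here. Of 19 clock and PAR bZIP genes measured, 0 were called in any comparison. Over all features 0% were called between treatments at either time, and 0.034% between the days in TiO2 mice. Their median difference with TiO2 was 0.01 at day 1 and -0.05 at day 28. Dbp, a PAR bZIP activator under clock control that is known to act on Cyp7a1, differed by -0.71 ± 0.54 with TiO2 at day 1 and by -0.49 ± 0.58 at day 28. The day 28 controls stood at -2.57, 0.33, 0.21 and 0.66 for Dbp, so replicate 1, the mouse with the highest Cyp7a1, stood below the others. That mouse was on the array with the most quality metrics out of range. Its relatives Tef and Hlf differed by -0.30 ± 0.28 and -0.20 ± 0.20 at day 1, and by -0.45 ± 0.30 and -0.20 ± 0.21 at day 28. The core activators Arntl and Clock differed by 0.20 ± 0.22 and 0.17 ± 0.12 at day 1, and the repressors Nr1d1, Nr1d2, Per1 and Per2 by between -0.30 and 0.19. Usp2, a clock-controlled deubiquitinase, had the smallest p of the list at day 28, at -0.35 ± 0.11 (unadjusted p 0.0043, limma adjusted p 1.00), but was well above background on only 6 of 21 arrays.

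Between the days, 6 of 17649 features (0.034%) were called in TiO2 mice, all lower at day 28, and 0% in controls, with 3.76% and 3.01% at an unadjusted p under 0.05. Lcn2, the iron-siderophore binding protein of the acute phase, was the one member of the lists among them, at -1.77 ± 0.25 (limma adjusted p 0.00619). Arntl was lower at day 28 by -0.64 ± 0.25 in controls and -0.64 ± 0.21 in TiO2 mice. Nfil3, the repressor that opposes Dbp, was lower by -0.67 ± 0.29 and -0.85 ± 0.25. Dbp was higher by 0.79 ± 0.60 and 1.00 ± 0.51. For these 3 clock genes the limma adjusted p was 1.00 in controls and 0.597 or more in TiO2 mice. Cyp7a1 had its higher values at day 28 in both treatments, 0.56 and 1.00 as above.

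**Figure D4:**
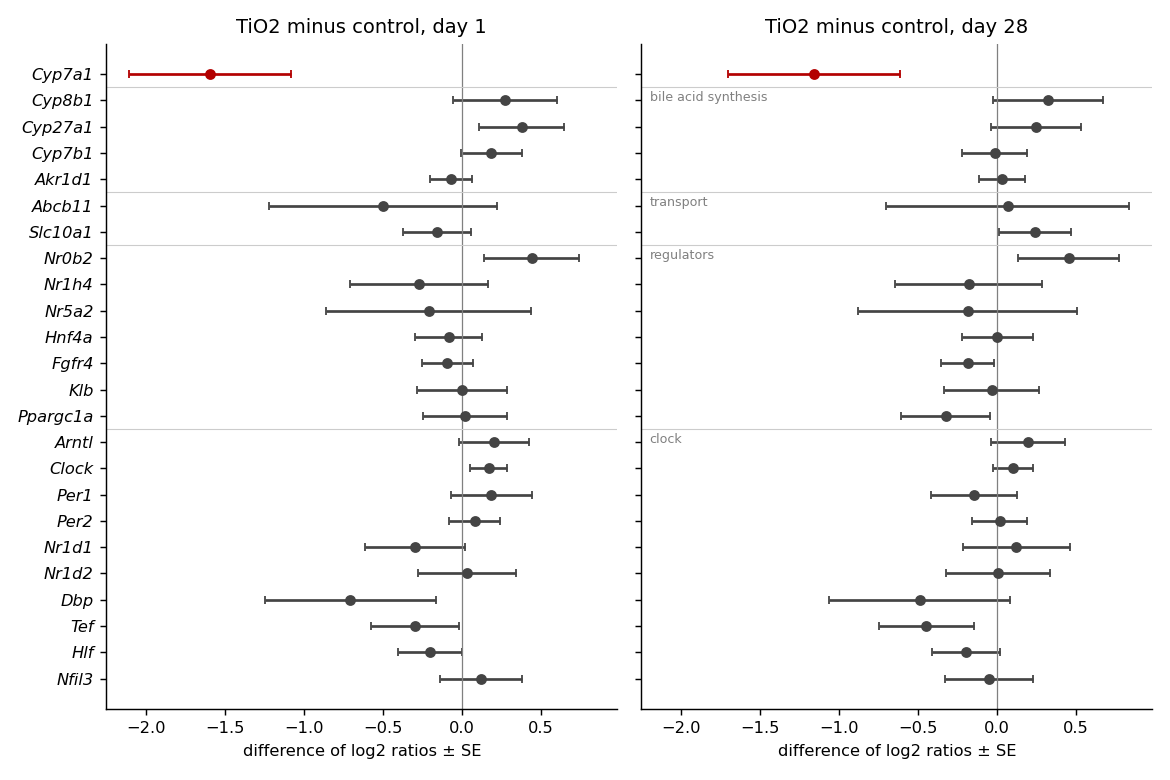
Difference between TiO2 and control mice (log2 ratios ± SE of limma) at day 1 and day 28 for Cyp7a1 (red, A_52_P84027) and fixed genes of synthesis, transport, regulation and the clock. Cyp7a1 lies at -1.59 and -1.16, and none of the others was called.

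Over all 21 mice the level of Cyp7a1 was set against 27 fixed genes. These correlations contain the group differences by which Cyp7a1 was chosen, so they are a description and carry no test. The strongest by Pearson's r were negative, those with the acute phase genes Saa1, Saa3 and Lcn2 and with the repressor Nr0b2. For Saa1 r was -0.66 and rho -0.56, and r without the 2 mice farthest from the median of Cyp7a1 was -0.56. Within scan days r was -0.40, -0.37 and -0.91. Saa3 had r -0.64 and rho -0.51, and Lcn2 r -0.62 and rho -0.57. Nr0b2 had r -0.53 and rho -0.44, with -0.70, -0.22 and -0.59 within scan days. Without the 2 farthest mice r was -0.32 for Nr0b2, so that relation rests in part on these mice. The PAR bZIP gene Hlf had a positive rho of 0.53, above Saa3 and Nr0b2 in size, and r 0.37. With A_51_P290981 in place of A_52_P84027, r was -0.40 for Saa1, -0.39 for Saa3, -0.27 for Lcn2, -0.32 for Nr0b2 and 0.15 for Hlf. The strongest with that probe were Hnf4a (0.80) and Fgfr4 (0.61).

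Of 26 acute phase genes 0 were called between TiO2 and control mice. With TiO2, 21 had higher values at day 1 (median 0.26) and 14 at day 28 (median 0.01), against 47.8% and 51.2% of all features. In limma 7 of the 26 had an unadjusted p under 0.05 at day 1 and 1 at day 28, against 1.73% and 0.935% of all features. Saa1, a serum amyloid, differed by 1.76 ± 0.39 at day 1 (limma adjusted p 1.00) and by -0.01 ± 0.42 at day 28. Lcn2 differed by 1.48 ± 0.27 at day 1 (limma adjusted p 0.285) and by 0.37 ± 0.28 at day 28. After removal of group and scan day means, the correlation with Cyp7a1 was -0.37 for Saa1, -0.34 for Saa3 and -0.16 for Lcn2. Over 17440 features the 5th and 95th percentiles of this correlation were -0.44 and 0.41.

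Each mouse was then compared with its own group and scan day, which leaves out the contrast that chose the gene. Cyp7a1 entered a limma fit as a covariate beside group and scan day. Of all features, 0% were called at an adjusted p of 0.05, and 849 (4.81%) had an unadjusted p under 0.05. The 10 named genes of highest correlation were Tmem251 (r 0.85), Mrpl15 (0.79), Fem1a (0.77), Kbtbd7 (0.76), Slc25a45 (0.75), Shroom1 (0.73), Ahcyl2 (0.73), Pdik1l (0.73), Akr1d1 (0.73) and Uba3 (0.71). The 10 of lowest were Fos (-0.85), Tmc1 (-0.84), Cxcl1 (-0.81), Map3k1 (-0.80), Emilin2 (-0.79), D030056L22Rik (-0.79), Crlf2 (-0.78), Cp (-0.76), Olfr332 (-0.75) and Slc25a33 (-0.73). They were picked for these values out of 11111 named genes. Some were dim: Tmc1 was above background on 7 of 21 arrays, Ahcyl2 on 8, Olfr332 on 11 and Pdik1l on 17. Control day 1 replicate 2 lay farthest from its group, and without it r was 0.77 for Tmem251, 0.58 for Akr1d1, -0.80 for Fos, -0.71 for Cxcl1 and -0.69 for Map3k1.

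Of these 20 genes Fos, an immediate early transcription factor, had the smallest adjusted p, with a slope of -0.36 ± 0.06 per log2 unit of Cyp7a1 (limma adjusted p 0.0684). It was above background on 17 of 21 arrays. It passed in 6 of 36 alternatives, and its slope was negative in all 36. Cxcl1, a chemokine for neutrophils, had a slope of -0.50 ± 0.09 (limma adjusted p 0.0946), was above background on 14 arrays, and passed in 3 of 36. Over all 17648 features, 0 were called in 26 of the 36 alternatives. In the others at most 3 were called, except 7138 with normexp on all spots. Within scan days the correlation of Cyp7a1 with Fos, group differences included, was -0.40, -0.52 and -0.65, and that with Cxcl1 0.01, -0.67 and -0.51. Some further immediate early genes, looked up after the values of Fos were seen, gave -0.71 for Junb, -0.70 for Ier2 and -0.63 for Egr1, with limma adjusted p-values of 0.647 to 0.820. Other probes gave -0.76 for Junb, -0.20 for Ier2 and 0.07 for Myc. Jun, Maff and Atf3 were looked up as well and are not given, so these values do not describe the whole class. Map3k1, a kinase upstream of the JNK pathway, had a slope of -0.17 ± 0.04 (limma adjusted p 0.647) and correlated at -0.83 with the other probe of Cyp7a1. Cp, which encodes the acute phase protein ceruloplasmin, had a slope of -0.13 ± 0.04.

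Among the enzymes of bile acid synthesis Akr1d1, the 5-beta-reductase that follows Cyp7a1 in the pathway, stood closest to it. Its deviations correlated at 0.73 with those of A_52_P84027 and at 0.53 with A_51_P290981, with a slope of 0.17 ± 0.05 (limma adjusted p 0.820). With the liver channel alone the correlation was 0.44. Within scan days, group differences included, it was -0.16, 0.69 and 0.51, so scan day 1 had the opposite sign. Its group means hardly differed, by -0.07 ± 0.13 with TiO2 at day 1 and 0.03 ± 0.14 at day 28. Over the 20 enzymes the median correlation was 0.11, with 13 positive, against a median of -0.02 over all features. Of the 25 regulators with complete values 12 were positive. Hnf4a had 0.41, Nr0b2 -0.37, Fgfr4 0.26, Nr5a2 -0.16 and Nr1h4 -0.04, all at limma adjusted p-values of 0.997 or more. The other probes of Hnf4a gave 0.17 and 0.05.

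Over the 19 clock genes the median correlation was 0.03, with 10 positive and 9 negative. Hlf, the hepatic leukemia factor of the PAR bZIP family, had the highest at 0.61, with 0.69, 0.65 and 0.80 within scan days (group differences included) and a slope of 0.18 ± 0.06 (limma adjusted p 0.900). Csnk1e, a kinase of the period proteins, had the lowest at -0.59, with -0.61 for the other probe of Cyp7a1. Nr1d1 and Nr1d2 had -0.45 and -0.41, Arntl and Clock 0.29 each, Dbp -0.28 and Tef -0.10. Without control day 1 replicate 2 Hlf had 0.59. Over all 21 mice, group differences included, the r of Hlf with A_51_P290981 was only 0.15.

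Of the genes of fasting and feeding, 22 were measured, with a median correlation of 0.20 and 16 positive. Named after their values were seen, Ppp1r3b, a glycogen-targeting subunit of protein phosphatase 1, had 0.70, and Igfbp1, a fasting-induced binding protein, -0.63, at limma adjusted p-values of 0.647 and 0.820. All 11 markers of Kupffer cells and macrophages had negative values, from -0.54 to -0.22, with a median of -0.40, but with A_51_P290981 their median was -0.04. With TiO2, 9 of the 11 had higher values at day 1 (median 0.11) and 11 at day 28 (median 0.17), and 0 were called. Of all features 47.8% and 51.2% had higher values, and 0% were called. All 11 were above background on every array, at medians of 1.42 to 3.08 per array. Their part in the level of Cyp7a1 was not tested.

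**Figure D5:**
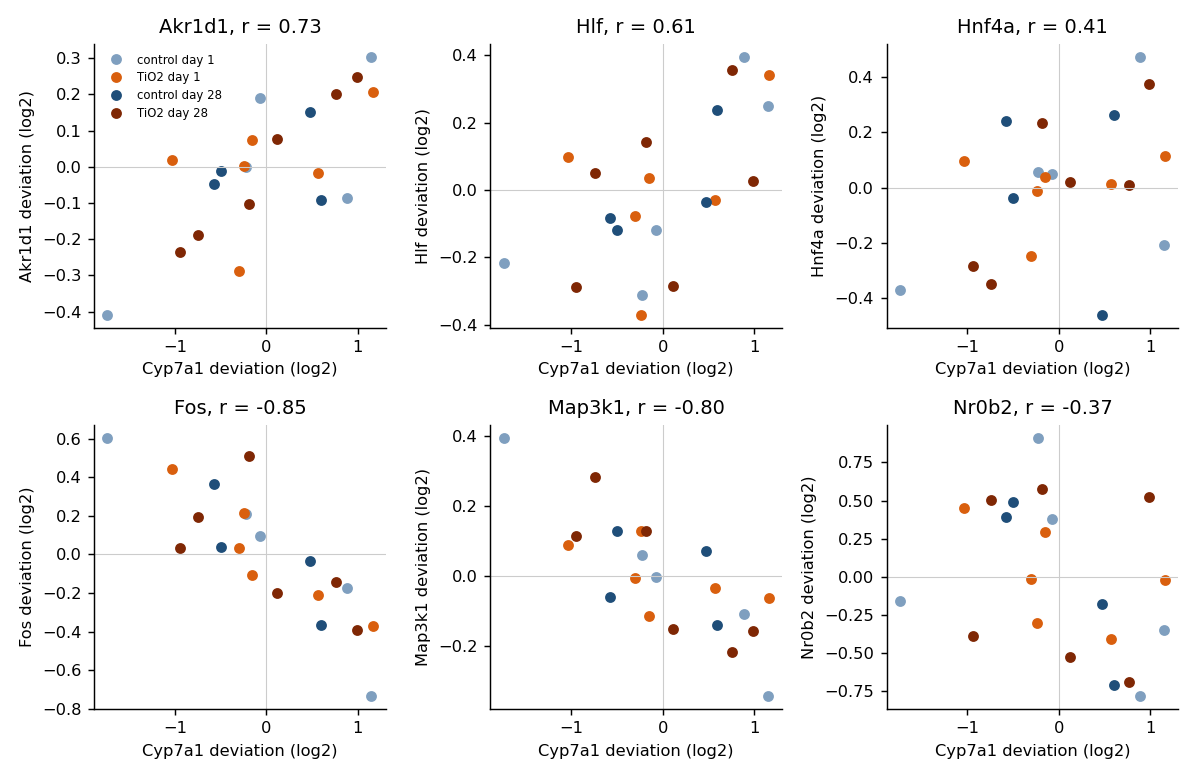
Deviation of Cyp7a1 (A_52_P84027) from its group and scan day means against that of 6 genes, one point per mouse, in log2 units. Akr1d1 and Hlf rise with Cyp7a1 (r 0.73 and 0.61), Fos and Map3k1 fall (-0.85 and -0.80), and Hnf4a and Nr0b2 scatter more (0.41 and -0.37). The mouse at the far left is control day 1 replicate 2.

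The promoter table used here has no entry for Cyp7a1. The 250 bases upstream of the start were read for 4 genes described above, an enzyme, a clock gene, an immediate early gene and a repressor of Cyp7a1. They were picked after their values were seen, Nr0b2 and Hlf are not among the 20 genes most like Cyp7a1, and most of those 20 were not read. The windows were taken from RefSeq (GRCm38.p6), Akr1d1 at chr6:37529923-37530172 (plus strand), Hlf at chr11:90390918-90391167 (minus), Fos at chr12:85473640-85473889 (plus) and Nr0b2 at chr4:133553126-133553375 (plus). They are printed 5′ to 3′ in lower case, with matches on either strand to 4 motifs in capitals. The motifs were the E-box CACGTG bound by clock activators, the nuclear receptor half-site AGGTCA, the cyclic AMP response element TGACGTCA and the D-box TTATGTAA of the PAR bZIP family.
Akr1d1: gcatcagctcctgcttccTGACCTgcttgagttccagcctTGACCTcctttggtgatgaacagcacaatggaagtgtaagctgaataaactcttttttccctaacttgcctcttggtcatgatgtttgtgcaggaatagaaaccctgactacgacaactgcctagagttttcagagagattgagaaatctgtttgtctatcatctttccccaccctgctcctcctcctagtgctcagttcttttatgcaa
Hlf: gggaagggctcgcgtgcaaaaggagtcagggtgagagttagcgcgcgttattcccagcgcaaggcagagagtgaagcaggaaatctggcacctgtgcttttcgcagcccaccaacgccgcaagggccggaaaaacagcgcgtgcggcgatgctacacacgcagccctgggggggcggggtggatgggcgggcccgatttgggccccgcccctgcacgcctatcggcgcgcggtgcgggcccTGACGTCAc
Fos: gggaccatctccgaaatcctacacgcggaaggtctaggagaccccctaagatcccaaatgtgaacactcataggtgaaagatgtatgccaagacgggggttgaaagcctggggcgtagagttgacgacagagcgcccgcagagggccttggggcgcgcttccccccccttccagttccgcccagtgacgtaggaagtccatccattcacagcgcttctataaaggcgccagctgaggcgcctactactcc
Nr0b2: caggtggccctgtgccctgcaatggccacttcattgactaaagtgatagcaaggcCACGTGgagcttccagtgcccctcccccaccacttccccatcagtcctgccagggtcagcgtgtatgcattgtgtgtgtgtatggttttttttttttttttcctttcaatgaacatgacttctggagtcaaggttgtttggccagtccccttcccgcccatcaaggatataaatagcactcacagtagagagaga
The window of Akr1d1 held 2 half-sites, both as the reverse TGACCT, that of Hlf 1 cyclic AMP response element and that of Nr0b2 1 E-box. None of the 4 motifs was found in that of Fos. Of 6 further genes read, Tef held 1 E-box in each of its 2 windows, and Dbp, Cyp8b1, Cxcl1, Map3k1 and Nr1d1 held none of the motifs. Of 32851 upstream windows of this length in the table, 6.02% held the E-box, 14.0% the half-site, 1.55% the cyclic AMP response element and 0.82% the D-box. These matches describe the letters only.

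The genes found near Cyp7a1 differed in part between its 2 probes, and the part of signal strength in this was not tested. With the dimmer A_51_P290981 as the covariate of the limma fit, 1 feature (0.00567%) was called, the unnamed probe A_51_P465582. An unadjusted p under 0.05 was found for 1803 (10.2%). Of the 100 named genes with the strongest correlation by either probe, 22 were in both sets, and all 22 had the same sign by both. Over 11111 named genes the correlations by the 2 probes correlated at 0.80, which is across genes that share the same 21 arrays. Among those 22, besides Cxcl1, Map3k1, Cp and Shroom1 above, was Alas1, the first enzyme of heme synthesis, at 0.64 and 0.75. It is named here after its values were seen.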

How the data were processed

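Liver RNA of 21 mice was measured on 2-colour Agilent arrays. The deposited scanner files hold intensity per spot and channel, the median of its pixels and of its local background, not normalized, per the file headers. The LogRatio column, also deposited, is the log10 of processed red over green signal per the file headers, and the authors' table of processed values holds log2 values. Its scale and direction, not stated, were taken from its match to ratios computed here without background subtraction (r 0.9957 to 0.9971). Its columns have medians of -0.058 to -0.011. The headers name Feature Extraction 10.7.3.1, the submitters' processing notes 9.5.3.1.

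Background was corrected with normexp (offset 50) and arrays were normalized by loess in limma 3.58.1 (R 4.3.3). Spots marked as deviant were given the array's median background for normexp and then left out, and spots of a probe were averaged. The choice followed a look at the data. Normexp on all spots gave values as well and stands as an alternative in the closing section. Gene symbols came through RefSeq accessions (GRCm38.p6) for 23374 of 41174 probes. Features had a liver signal well above background on at least 50% of the arrays of a group, by 1 probe per gene, the one with the highest mean liver signal. This kept 17649 features, 11263 of them named.

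One limma model held the 4 group means of all 21 arrays. A second held group, scan day and the level of Cyp7a1, so that its slope is read within groups and scan days. P-values were adjusted by Benjamini-Hochberg over all features, with a threshold of 0.05. Correlations over mice with group differences included are given without a test; a count of permutation p-values (100000 resamples) stands only in the closing section. Both fits were checked on simulated data with independent noise and no scan day effect. That check therefore does not cover the part of scan day in the real arrays.

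Named were the fixed genes of the bile acid and clock lists, the members with the smallest p, and the 10 genes with the highest and the 10 with the lowest correlation with Cyp7a1 within groups. Genes looked up later are marked so. The gene and the lists were chosen with earlier results of these data known. The labels call the samples biological replicates. Their number limits the precision. The design text speaks of 22 arrays, and 21 were analysed here. Alternatives in processing, in the arrays used and in the blocks are given in the closing section, 2 of them added after seeing the data. One of the fixed genes is not reported here.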

Additional observations from a re-analysis of the deposited data

Results flagged for a closer look

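In 37 genes and probes, the 148 groups of 4 to 6 mice were searched for a mouse far from the rest of its group by Dixon's criterion. It marked 14 (9.46%), where chance marks about 5%. Neither probe of Cyp7a1 was among them.

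Control day 28 replicate 1, the mouse with the highest Cyp7a1, stood apart in 6 genes besides Nr1h4. Its log2 ratio was 4.28 for Abcb11 (others 7.24 to 7.47), 0.58 for Akr1d1 (0.79 to 0.83), -2.57 for Dbp (0.21 to 0.66), -4.25 for Junb (-1.63 to -1.33), -0.77 for Nr1d1 (0.90 to 1.09) and -0.24 for Nr1d2 (1.42 to 1.48). For Nr1h4 it stood at 2.87, with the others at 4.60 to 4.93. Control day 1 replicate 1 stood at 5.28 for Abcb11 (7.10 to 7.82), 3.17 for Nr1h4 (4.38 to 4.67) and 2.63 for Nr5a2 (4.59 to 5.04). Both mice were on scan day 1, each as the only mouse of its group on that day. Abcb11 stood at 4.28 to 5.68 on scan day 1 in every group, and at 7.05 to 7.82 on the other scan days. Dixon's criterion and its chance rate take no account of scan day, and the part of scan day in these values was not tested. The arrays of these mice had 4 and 3 of 12 quality metrics out of range.

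Of TiO2 mice, day 1 replicate 1 stood at 0.39 for Clock (0.59 to 0.70), and day 28 replicate 1 at 1.24 for Cyp8b1 (2.52 to 2.99) and 1.00 for Per2 (0.56 to 0.71). Control day 1 replicate 3 stood at -2.85 for Fos (-1.89 to -1.52).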

How the results depend on the processing

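The difference of Cyp7a1 between TiO2 and control mice was negative under 38 of 38 alternatives at day 1 (-2.21 to -0.41) and at day 28 (-1.77 to -0.36), and under 37 of 37 over both days (-1.98 to -0.49). Since the gene was chosen for this difference, the count of signs is no test of it. Some alternatives could not move the difference. Keeping dim probes, or fitting only the groups compared, gave the same -1.59 at day 1 and -1.16 at day 28. The lowest size at day 1, -0.41, came from the other probe, which also put TiO2 mice at day 28 only 0.042 above those at day 1. Leaving out each mouse gave -2.08 to -1.35 at day 1, -1.42 to -0.77 at day 28, -1.62 to -1.18 over both, 0.07 to 0.83 between control days, 0.74 to 1.22 between TiO2 days and 0.17 to 0.92 for the change of the effect. The day difference of controls was -0.70 with normexp on all spots and -0.72 on the 11 arrays in range, where the change of the effect was 1.79. Both settings were chosen after seeing the data.

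The 6 features called between the TiO2 days became 3 with offset 10, 1 with LogRatio, 2 with scaling, 3 with normexp on all spots and 1 on the arrays in range. They became 1, 0 and 0 without scan days 1, 2 and 3, and 19 with scan day, 14 with slide and 31 with slide at random as a block. Leaving out each mouse gave 5 to 9. Called at day 1 were 1 on the arrays in range, 3 with slide at random and 0 to 3 without each mouse, over both days 1 with LogRatio and 0 to 1, and between control days 7 on the arrays in range and 0 to 1. Features called for following Cyp7a1 were 1 each with LogRatio, the liver channel alone, scaling and the other probe, 3 without scan day 3, 0 to 3 without each mouse, and 7138 with normexp on all spots. In that last setting slopes on Cyp7a1 turned positive for Nr0b2 (0.32), Nr1h4 (0.60), Nr5a2 (0.64), Ppargc1a (0.30), Cyp7b1 (0.78) and Abcb11 (0.41), among the genes reported here. The cause was not tested. Over all mice 4 of 27 fixed genes correlated with Cyp7a1 at an unadjusted permutation p under 0.05 by Pearson's r, 2 with the other probe and 3 to 6 without each mouse; this count holds the group differences that chose the gene and tests nothing beyond them. No paired analysis was possible because the replicate numbers follow the order of deposition. The reference signal near background and 4 to 6 mice per group limit the precision.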
